A study of Mus musculus with 10 samples.

Results

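Kruppel-like factors (KLFs) are transcription factors that bind GC-rich and CACCC-type DNA through a conserved set of zinc fingers at the carboxyl end. In the vessel wall the family is known for distinct roles. Klf2 is induced by blood flow in endothelium, Klf4 and Klf5 are linked to the switch of smooth muscle cells (SMCs) from a contractile to an activated state, and Klf15 governs amino acid, glucose and lipid metabolism in muscle, liver and fat. Klf9 is a target of glucocorticoid and thyroid hormone receptors and Klf10 an early target of TGF-beta.

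The expression of 9 of them, Klf2, Klf3, Klf4, Klf5, Klf6, Klf9, Klf10, Klf13 and Klf15, was described in the porcine pancreatic elastase (PPE) model of abdominal aortic aneurysm. They were chosen by gene name among the 35527 names on the array, and all 9 were among the 22520 names bright enough to be tested. They were read by 12 probes, 3 for Klf13, 2 for Klf9 and 1 for each of the other 7. Male C57BL/6J mice, 10 weeks old and on a normal diet, had the infrarenal aorta filled for 5 min at 100 mmHg, either with saline (sham, n = 5 mice) or with saline that held PPE at 1.5 U/mL (PPE, n = 5 mice), and the treated segment was taken at day 7. Both groups therefore share the operation and the filling pressure, and no unoperated aorta was part of the comparison. Each array carried RNA of 1 aorta (500 ng, red dye) against a universal mouse reference RNA (green dye), with no dye swap. Values are log2 ratios of aorta over reference, and differences are PPE minus sham.

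Of the smooth muscle markers, 8 of 10 were lower in PPE aortas, and their mean log2 ratio ran from 3.39 to 4.63 in sham and from 1.75 to 2.95 in PPE. The endothelial markers were all detected, and 0 of 10 passed limma (2 at an unadjusted p under 0.05). Macrophage markers were higher for 8 of 10, neutrophil and T cell markers for 5 of 6 each and fibroblast markers for 3 of 7, and 0 of 4 B cell markers passed (0 at an unadjusted p under 0.05). Among all names tested, 9.96% were lower and 13.8% higher at the same limma adjusted p under 0.01. With each array centred on its median in place of a loess curve, 0 smooth muscle, T cell and fibroblast markers and 3 macrophage and 3 neutrophil markers were called. In tissue RNA, fewer cells of a type and less RNA per cell cannot be told apart. Skeletal muscle markers, 0 of 7 called and 0 at an unadjusted p under 0.05, had a mean log2 ratio that ran from 0.88 to 4.31 across sham and from 0.53 to 4.13 across PPE arrays. The arrays fell on 5 slides: sham 1 shared slide 1 with PPE 1 and PPE 2, sham 2 and sham 3 shared slide 2 with PPE 3 and PPE 4, and the other 3 slides held 1 array each. In the aorta channel 37.6% (sham 5) to 65.8% (PPE 1) of spots stood well clear of background.

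Of the 9 KLFs, 2 passed the test and both were lower in PPE aortas, Klf15 and Klf9. The threshold was an adjusted p under 0.01 in limma, at which 9.96% of all names tested were lower and 13.8% higher. No KLF was higher. The groups did not overlap for 2 of the 9 KLFs, again Klf15 and Klf9, beside 25.5% of all names. The median log2 change over the 9 was -0.15, beside 0.02 over all names, and 6 of 9 changes were below 0, beside 47.7% of all names. At an unadjusted p under 0.05, 4 of the 9 differed, beside 43.6% of all names. A count of 2 in 9 in this contrast is thus not far from the background, and what follows is an account of the single genes.

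**Figure D1:**
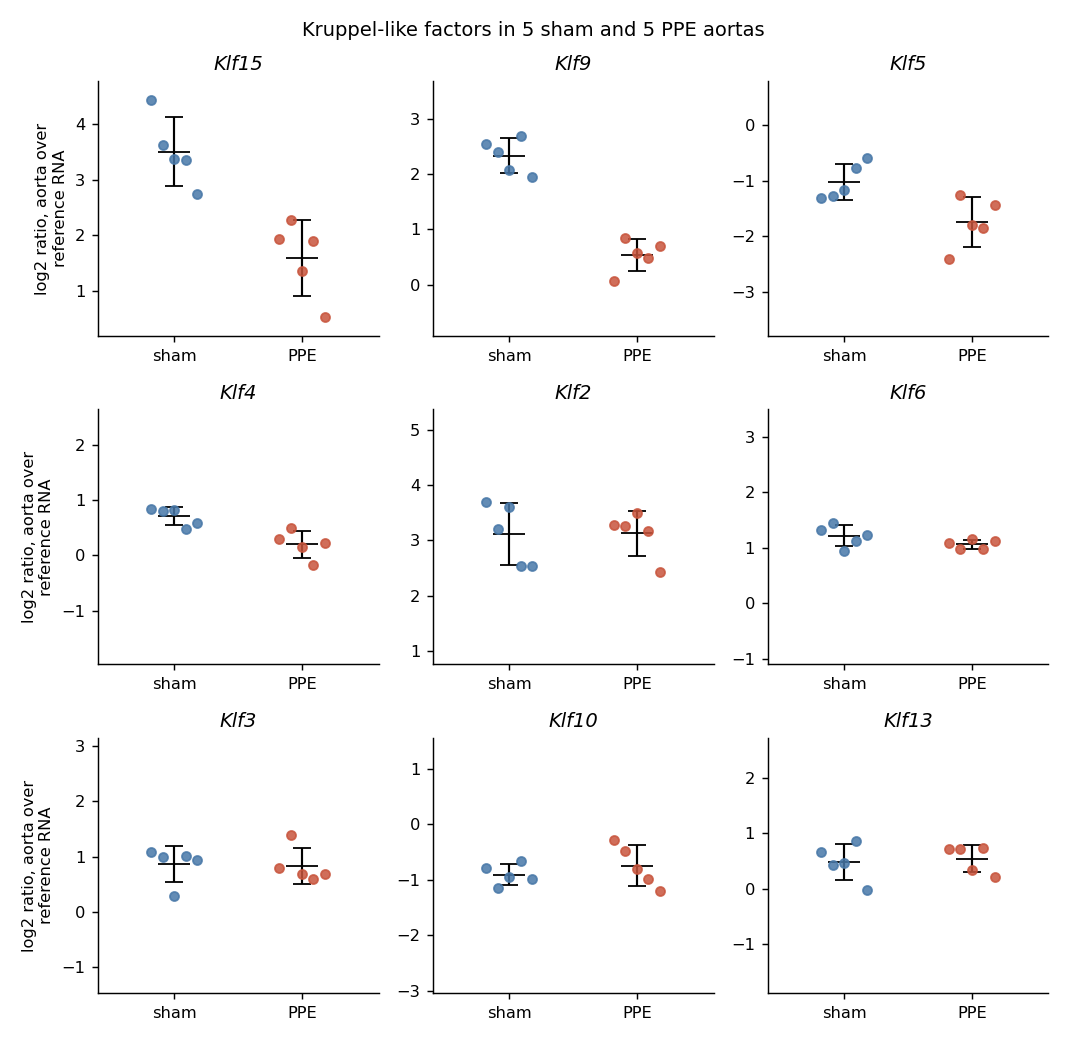
Log2 ratio of aorta over reference RNA (y axis) for each KLF in the 5 sham and 5 PPE arrays. Points are arrays and bars are the mean ± SD, and every panel spans the same height on its y axis. For Klf15 and Klf9 all PPE arrays lay below all sham arrays, and for the other 7 the groups overlapped.

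Klf15, which switches on amino acid breakdown and glucose uptake genes in fasting and under glucocorticoids, was 3.76-fold lower in PPE aortas. In sham arrays 1 to 5 its log2 ratio was 4.44, 3.62, 3.38, 3.35 and 2.74. In PPE arrays 1 to 5 it was 1.93, 2.27, 1.36, 1.90 and 0.52. The highest PPE array lay below the lowest sham array. The log2 change was -1.91 ± 0.35 (SE, n = 5 and 5, limma adjusted p = 0.0014), with a 95% interval of the fall of 2.19-fold to 6.46-fold. A larger fall was seen in 1.07% of the names tested. The change was -2.34 within slide 1 and -1.87 within slide 2. Its probe, at chr6:90425144-90425203 (mm9, plus strand), was brighter than 27.6% of the probes that stand for a name, and was well above background on all 10 arrays.

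The size of the Klf15 fall varied with the scaling. With the scanner software's own ratios in place of those computed here it was -2.97 on the log2 scale (limma adjusted p = 9.84e-06). With plain centring of each array on its median in place of the intensity-dependent loess curve it was -1.37 (adjusted p = 0.149), no longer called. That centring raised the median of all names by 0.388 and left 408 names higher and 8 lower, beside 3116 and 2243 in the main analysis. Relative to the median of all names the Klf15 change was -1.78 under centring and -1.93 in the main analysis.

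Of 11 genes linked to KLF15 in amino acid and glucose metabolism 9 were tested, 5 were lower, 0 were higher and 4 did not pass, beside 9.96% lower among all names. The median log2 change of the 9 was -1.28. Pdk4, the kinase that shuts pyruvate out of oxidation, fell by 3.23 on the log2 scale (limma adjusted p = 6.65e-05), from 3.85 to 5.70 across sham arrays to 1.24 to 2.87 across PPE arrays. Slc2a4, the insulin-responsive glucose transporter GLUT4, fell by 1.85 (adjusted p = 0.000312). Prodh, which opens proline breakdown, fell by 1.49 (adjusted p = 0.000183). For these 3 genes no PPE array reached the lowest sham array, beside 25.5% of all names without overlap. The remaining calls, named after their values were seen, were the alanine transaminase gene Gpt (-1.39) and the mitochondrial acetate-activating gene Acss1 (-1.07). Klf15 binding to these genes was not measured. Under median centring 0 of the 9 were called and their median was -0.71.

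Fat around the vessel also expresses Klf15 and Slc2a4. Of 8 adipocyte markers 1 was called lower, beside 9.96% of all names. It was Lpl, the lipoprotein lipase that is also expressed in muscle (log2 change -1.78, limma adjusted p = 0.0021). An unadjusted p under 0.05 was found for 4 of the 8, beside 43.6% of all names. The log2 changes of the 8 were all below 0, from -1.78 to -0.43 with a median of -0.69. Under median centring the median was 0.18 and 5 changes had the other sign. The mean log2 ratio of the 8 ran from 4.80 to 5.85 in sham and from 3.82 to 5.41 in PPE. Set against these markers on the same array, Klf15 differed by -1.71 ± 0.49 (SD, n = 5) in sham arrays and by -2.84 ± 0.63 (SD, n = 5) in PPE arrays. The change of -1.13 gave p = 0.0317 in an exact two-sided permutation test and 0.0635 after adjustment over the 10 within-array differences tested, above the threshold of 0.05. It passed under 4 of the 8 other ways of processing, which were not all distinct. The scanner software's ratios and the series table gave the same value (-2.20, exact permutation adjusted p = 0.0198), and both passed. Aquantile and no filter on dim probes repeated the main value, and neither passed. The change also passed without sham 5 or PPE 4 (adjusted p = 0.0397 each). The part of fat in the Klf15 result was not tested beyond this. The smooth muscle markers had a median log2 change of -1.85, beside -1.91 for Klf15 and -1.80 for Klf9. Neither gene was set against those markers within arrays, and the part of smooth muscle content in their falls was not tested.

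Klf9, an early target of the glucocorticoid receptor, was 3.47-fold lower in PPE aortas. Its log2 ratio was 2.55, 2.40, 2.08, 2.68 and 1.95 in sham arrays 1 to 5, and 0.069, 0.85, 0.56, 0.49 and 0.71 in PPE arrays 1 to 5. The gap between the lowest sham and the highest PPE array was wider than the range within either group. The log2 change was -1.80 ± 0.18 (SE, n = 5 and 5, limma adjusted p = 1.82e-05), with a 95% interval of the fall of 2.64-fold to 4.56-fold. It was -2.09 within slide 1 and -1.71 within slide 2. Under median centring it was -1.10 (adjusted p = 0.304), which relative to the median of all names was -1.50. The probe lies at chr19:23240410-23240469 (mm9, plus strand).

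A second Klf9 probe, at chr19:23243231-23243290 (mm9, plus strand), was dim, brighter than 2.69% of the probes that stand for a name, and was above background on 7 of 10 arrays. It changed less, by -0.31 ± 0.14 on the log2 scale (SE, n = 5 and 5, limma adjusted p = 0.113 over all probes tested). With the mean of both probes in place of the brighter, the Klf9 change was -1.05, a value that rests on the dim probe as much as on the bright.

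Genes induced by glucocorticoids, the hormone signal that Klf9 and Klf15 share, did not move together. Of 9 tested, 3 were lower and 2 higher, beside 9.96% and 13.8% of all names, with a median log2 change of -0.30. Under median centring 0 were lower and 2 higher, and the median was 0.48. Zbtb16, a zinc finger repressor also known as PLZF, fell by 2.49 on the log2 scale (limma adjusted p = 3.52e-05), the phosphatase gene Dusp1 by 1.14 (adjusted p = 0.00874) and the clock gene Per1 by 0.99 (adjusted p = 0.00507). Lcn2, which encodes an iron-carrier binding protein of neutrophils and inflamed tissue, rose by 2.89 (adjusted p = 1.77e-06), and the metallothionein gene Mt2 by 2.24 (adjusted p = 3.41e-06). The 4 genes that did not pass are named after their values were seen. The chaperone gene Fkbp5 had a log2 change of -0.032 ± 0.15 (SE, n = 5 and 5, limma adjusted p = 0.894). Tsc22d3 changed by -0.45 ± 0.14 (SE, adjusted p = 0.031), Sgk1 by -0.30 (adjusted p = 0.434) and Sult1a1 by -0.28 (adjusted p = 0.533). Under median centring Fkbp5, Tsc22d3, Sgk1 and Sult1a1 were 0.62, 0.25, 0.56 and 0.48. Both risen genes are also induced in inflammation, and the macrophage and neutrophil markers rose on the same arrays. Their part in these values was not tested.

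**Figure D2:**
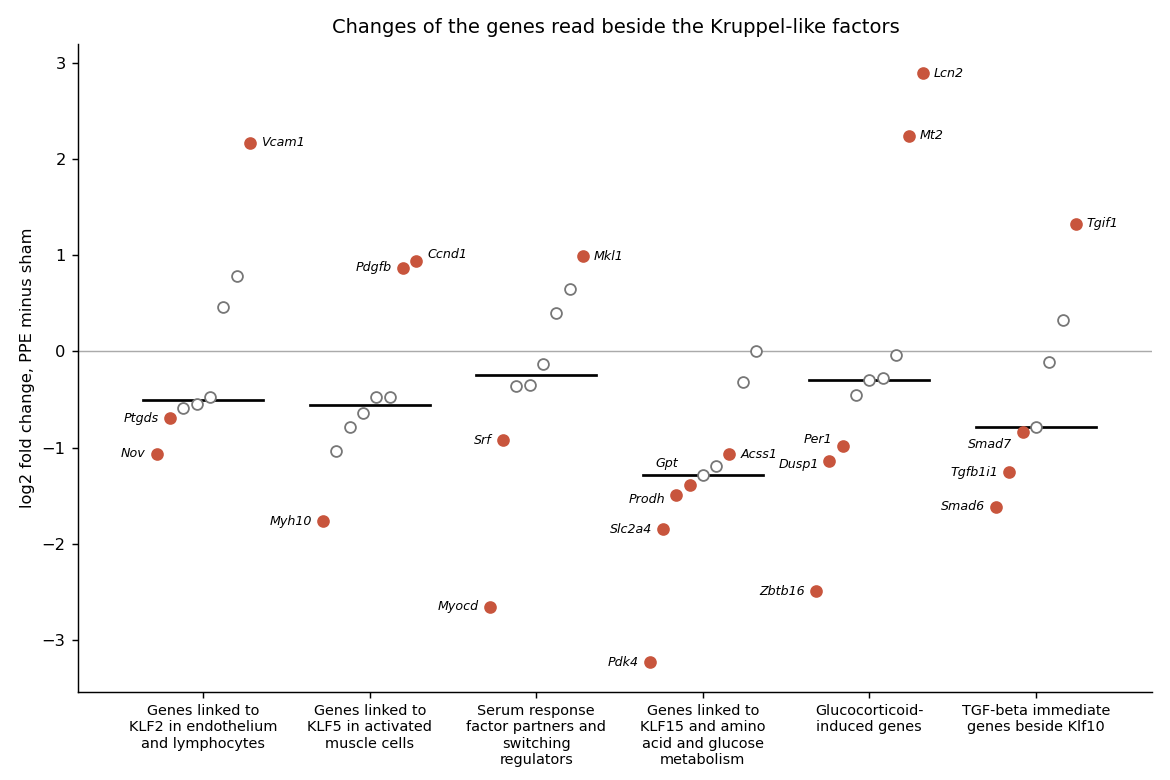
Log2 change, PPE minus sham (y axis), of each tested gene in the 6 lists read beside the KLFs (x axis). Filled points passed limma at an adjusted p under 0.01 and are named, open points did not, and black lines are list medians. In the KLF15-linked list 5 genes lay below 0 and were called and 0 were called above it, while the other 5 lists held calls on both sides.

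The promoters of the 2 KLFs that fell are shown beside those of Klf4 and Klf2, which did not pass the test. These are the 250 bases before the start of the gene (RefSeq, GRCm38.p6), 5′ to 3′ on the gene's strand. Capitals mark GGGCGG (the GC box), CACCC (the CACCC box), CACGTG (the E-box) and the MEF2 site, each searched on both strands. KLF proteins themselves bind the GC and CACCC boxes.
Klf15 (chr6:90462326-90462575, plus strand): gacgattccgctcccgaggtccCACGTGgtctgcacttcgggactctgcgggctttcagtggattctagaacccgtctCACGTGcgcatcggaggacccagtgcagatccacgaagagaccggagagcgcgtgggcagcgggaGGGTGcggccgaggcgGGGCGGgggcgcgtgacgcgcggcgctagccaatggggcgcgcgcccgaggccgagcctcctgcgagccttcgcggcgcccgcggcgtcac
Klf9 (chr19:23140976-23141225, plus strand): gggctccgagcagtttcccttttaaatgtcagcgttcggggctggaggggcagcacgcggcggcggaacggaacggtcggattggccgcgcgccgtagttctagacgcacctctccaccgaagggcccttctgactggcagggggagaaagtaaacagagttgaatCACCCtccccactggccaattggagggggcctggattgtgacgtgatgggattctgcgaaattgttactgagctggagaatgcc
Klf4 (chr4:55532476-55532725, minus strand): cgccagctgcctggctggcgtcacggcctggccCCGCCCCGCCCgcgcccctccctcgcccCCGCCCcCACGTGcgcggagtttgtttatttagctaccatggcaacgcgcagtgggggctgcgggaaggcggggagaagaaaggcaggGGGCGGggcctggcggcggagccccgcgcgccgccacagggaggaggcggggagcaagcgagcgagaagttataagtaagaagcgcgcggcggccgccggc
Klf2 (chr8:72318812-72319061, plus strand): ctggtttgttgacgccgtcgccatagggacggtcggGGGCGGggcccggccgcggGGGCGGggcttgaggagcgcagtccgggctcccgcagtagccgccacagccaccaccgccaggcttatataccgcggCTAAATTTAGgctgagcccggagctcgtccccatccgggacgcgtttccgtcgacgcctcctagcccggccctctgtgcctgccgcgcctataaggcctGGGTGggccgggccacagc

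Klf15 held E-boxes that begin 228 and 172 bases before the start, a CACCC box at 107 and a GC box at 91. Klf9 held a CACCC box at 84 and no GC box. Klf4 held GC boxes at 217, 212, 189 and 101, the first 2 of which share a base, and an E-box at 182. Klf2 held a MEF2 site at 118, GC boxes at 214 and 195 and a CACCC box at 19. Among 32851 promoters of the same length, GGGCGG was found in 32.7%, CACCC in 52%, CACGTG in 6.02% and the MEF2 site in 2.92%. The CArG box of serum response factor (1.47% of promoters), the glucocorticoid response element (0.387%) and the cyclic AMP response element (1.55%), searched on both strands, were not found in the 7 KLF promoters that the table held, which says only that these letters are not in this window.

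Klf5, a growth-promoting KLF that appears in activated SMCs after vessel injury, had lower values in PPE but did not pass the test. Its log2 ratio was -1.31, -1.27, -1.16, -0.78 and -0.58 in sham arrays 1 to 5, and -2.42, -1.25, -1.80, -1.84 and -1.44 in PPE arrays 1 to 5. PPE 2 lay within the sham range, and the other 4 PPE arrays lay below it. The log2 change was -0.73 ± 0.22 (SE, n = 5 and 5, limma adjusted p = 0.0244), with a 95% interval from -1.22 to -0.24. With the scanner software's ratios it was -1.11 (adjusted p = 0.00712), a call, and under median centring -0.19 (adjusted p = 0.818). With slide as a fixed block it was -0.57 (adjusted p = 0.118), and with each array left out the limma adjusted p ran from 0.0117 to 0.062.

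The Klf5 probe covers the zinc finger coding stretch, which the family shares, and lies across an intron (chr14:99702656-99712388, mm9, plus strand). It is shown against the brightest Klf13 probe (chr7:71082854-71082913, mm9, minus strand), with which 29 of 40 aligned bases (72.5%) are the same, marked in capitals.
Klf5 probe: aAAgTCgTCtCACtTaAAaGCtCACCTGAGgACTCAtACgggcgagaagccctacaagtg
Klf13 probe: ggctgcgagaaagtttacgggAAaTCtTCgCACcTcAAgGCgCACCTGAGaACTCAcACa
How far either probe binds the transcript of another KLF was not tested.

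Klf4, which represses contractile genes in SMCs and also acts in endothelium and macrophages, was read by a probe at chr4:55540167-55540226 (mm9, minus strand) and gave a smaller and tighter difference. Its log2 ratio was 0.83, 0.81, 0.83, 0.47 and 0.59 in sham arrays 1 to 5, and 0.29, 0.49, 0.14, -0.17 and 0.23 in PPE arrays 1 to 5. The groups overlapped only through PPE 2, which lay just above sham 4. The log2 change was -0.51 ± 0.14 (SE, n = 5 and 5, limma adjusted p = 0.0124), with a 95% interval from -0.81 to -0.21, and did not pass the threshold. It was -0.44 within slide 1 and -0.83 within slide 2. Among other settings, it passed with the scanner software's ratios (-0.62, adjusted p = 0.00817), with slide as a fixed block (-0.67, adjusted p = 0.00705) and without PPE 2 (-0.58, adjusted p = 0.00674), and turned to 0.16 under median centring (adjusted p = 0.89).

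Contractile genes dropped relative to both factors. Of the smooth muscle markers, Synpo2 fell by 2.98, Tagln by 2.95 and Myocd, the master coactivator of contractile genes, by 2.66 on the log2 scale (limma adjusted p = 3.76e-05, 1.46e-06 and 0.00126). The Klf4 log2 ratio minus the mean of the 10 markers on the same array averaged -3.37 ± 0.51 (SD, n = 5) in sham arrays and -1.87 ± 0.36 (SD, n = 5) in PPE arrays, a change of 1.50 with no overlap (exact permutation p = 0.00794, the lowest possible with 5 against 5, adjusted p = 0.0265). The same difference for Klf5 changed by 1.28 (exact permutation p = 0.0159, adjusted p = 0.0397). The Klf4 difference missed the threshold without PPE 2, PPE 3 or PPE 5 (adjusted p = 0.0529 each), and the Klf5 difference without sham 1, sham 2, sham 4 or any of PPE 2 to PPE 5 (adjusted p = 0.0595 to 0.0926). With the mean of a gene's probes neither passed (adjusted p = 0.0529 for Klf4 and 0.0635 for Klf5), and under median centring the Klf5 difference did not pass (0.95, adjusted p = 0.0529). With the scanner software's ratios the Klf5 difference passed but was smaller (0.76, adjusted p = 0.0265). Klf4 and Klf5 were not told apart from each other, with a change of 0.22 ± 0.29 (SE) in Klf4 minus Klf5 (exact permutation adjusted p = 0.508), and slides 1 and 2 gave 0.077 and -0.22.

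The serum response factor partners and switching regulators, a list that shares Myocd with the muscle markers, split. Their median log2 change was -0.24. Under median centring it was 0.54, 0 of the 8 were called and 3 changes had the other sign. Of 8 tested, 2 were lower, Myocd and Srf itself (log2 change -0.92, limma adjusted p = 0.00446), and 1 was higher, the actin-sensing coactivator gene Mkl1 (0.99, adjusted p = 3.09e-05). Among all names 9.96% were lower and 13.8% higher, and the groups did not overlap for 25.5%. The Srf values ran from 0.22 to 1.19 in sham and from -0.85 to 0.076 in PPE, and those of Mkl1 from -1.42 to -1.08 and from -0.40 to -0.16, so neither pair of groups overlapped.

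Genes linked to KLF5 in activated SMCs split too, with 1 of 8 lower and 2 higher, beside 9.96% and 13.8% of all names. Their median log2 change was -0.56. Under median centring 0 of the 8 were called and the median was 0.11. Myh10, which encodes the non-muscle myosin SMemb and is the classical KLF5 target, fell by 1.76 on the log2 scale (limma adjusted p = 2.06e-05). Its values ran from 0.77 to 1.67 in sham and from -0.82 to -0.13 in PPE. Ccnd1, the cyclin D1 gene, rose by 0.94 (adjusted p = 0.000104) and the growth factor gene Pdgfb by 0.87 (adjusted p = 9.65e-05). Each had no overlap between groups, beside 25.5% of all names.

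Klf2, the flow-induced KLF of endothelium that also keeps T cells quiescent, showed no difference that these arrays could resolve, by a probe at chr8:74845137-74845196 (mm9, plus strand). Its log2 ratio was 3.70, 3.20, 3.60, 2.55 and 2.54 in sham arrays 1 to 5, and 3.29, 3.26, 3.50, 3.17 and 2.43 in PPE arrays 1 to 5. Both groups spanned nearly the same range, over more than 1 log2 unit. The log2 change was 0.01 ± 0.27 (SE, n = 5 and 5, limma adjusted p = 0.982). Within this scaling the 95% interval from -0.59 to 0.61 leaves room for a change of 1.5-fold either way. Under median centring the Klf2 change was 0.66 (adjusted p = 0.591), above that interval, and 0.25 relative to the median of all names. Within slides 1 and 2 it was -0.43 and -0.067, and with slide as a fixed block -0.21 (adjusted p = 0.318). Set against the 10 endothelial markers on the same array it changed by -0.27 (exact permutation adjusted p = 0.508). The markers' mean ran from 2.28 to 3.41 in sham and from 2.52 to 3.64 in PPE.

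Genes linked to KLF2 moved both ways. Of 8 tested, 1 was higher and 2 lower, beside 13.8% and 9.96% of all names, with a median log2 change of -0.51. Under median centring 0 of the 8 were called, 3 changes had the other sign and the median was 0.14. Vcam1, the leukocyte adhesion molecule that KLF2 represses in cultured endothelium, rose by 2.17 on the log2 scale (limma adjusted p = 4.98e-06), from -0.64 to 0.23 across sham arrays to 1.62 to 2.22 across PPE arrays. Nov (CCN3) fell by 1.06 (adjusted p = 0.00897) and Ptgds, which encodes a prostaglandin D synthase, by 0.69 (adjusted p = 0.00567). The rest did not pass and are named after their values were seen. Nos3 and Thbd, which encode endothelial nitric oxide synthase and thrombomodulin, had log2 changes of -0.59 ± 0.21 (SE, limma adjusted p = 0.045) and -0.47 ± 0.16 (SE, adjusted p = 0.042). Under median centring these were 0.078 and 0.17. Slc9a3r2 changed by -0.55 (adjusted p = 0.0834), while Edn1 and S1pr1 went the other way, by 0.79 (adjusted p = 0.0116) and 0.46 (adjusted p = 0.0925).

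The pairs among Klf2, Klf4, Klf5 and Klf15 were compared within arrays, which removes a shift common to all probes of an array. A shift that varies with brightness is not removed. Klf15 fell further than Klf2, with a change of 1.92 ± 0.28 (SE, n = 5 and 5) in Klf2 minus Klf15 (exact permutation p = 0.00794, adjusted p = 0.0265), and 1.91 and 1.80 within slides 1 and 2. It also fell further than Klf4, by 1.40 ± 0.39 (exact permutation adjusted p = 0.0265), and by 1.90 and 1.04 within the slides. With the scanner software's ratios these 2 changes were larger, 2.89 against Klf2 and 2.36 against Klf4 (exact permutation adjusted p = 0.0198 each). For Klf5 minus Klf15 the change of 1.18 ± 0.57 did not pass (exact permutation adjusted p = 0.132). It passed with the scanner software's ratios and the series table (1.86 each) and under median centring (1.18), at an adjusted p of 0.0198 each, and without sham 5 (1.48, adjusted p = 0.0397). Klf2 minus Klf4 changed by 0.52 ± 0.28 and Klf2 minus Klf5 by 0.74 ± 0.50 (exact permutation adjusted p = 0.159 and 0.218), so an endothelial and a muscle KLF could not be separated with 5 arrays a group. With PPE 3 or PPE 5 left out, 0 of the 10 differences passed, and Klf4 minus Klf15 missed the threshold also without sham 1, sham 2 or sham 4 (adjusted p = 0.0529 each).

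**Figure D3:**
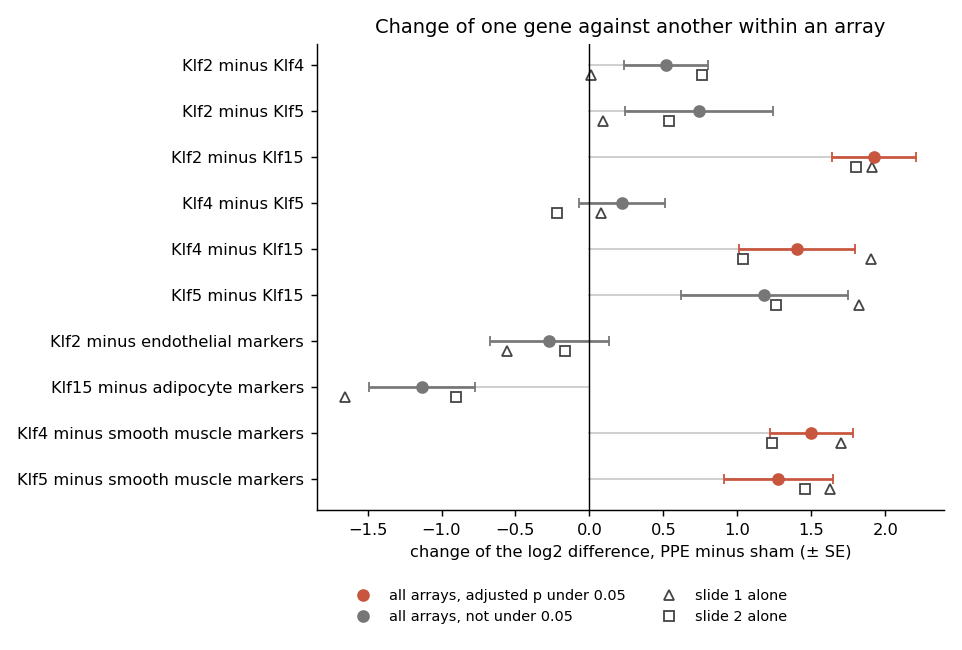
Change, PPE minus sham, of the difference between 2 log2 ratios on the same array (x axis) for 10 differences (y axis). Circles are means over all arrays ± SE, filled red where the exact permutation test gave an adjusted p under 0.05, and open triangles and squares are the values within slide 1 and slide 2. Klf2 minus Klf15, Klf4 minus Klf15 and both muscle KLFs against the smooth muscle markers lay above 0 and passed.

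In the main analysis Klf6, Klf3 and Klf10 stayed within the spread of the arrays. Klf6, an immediate-early gene of wounding, was the steadiest, from 0.95 to 1.44 in sham and from 0.98 to 1.16 in PPE, with a log2 change of -0.15 ± 0.11 (SE, n = 5 and 5, limma adjusted p = 0.341). Klf3, a repressor of the family, changed by -0.04 ± 0.19 (adjusted p = 0.899). Klf10, the early TGF-beta response gene, changed by 0.16 ± 0.17 (adjusted p = 0.538), from -1.15 to -0.65 in sham and from -1.19 to -0.29 in PPE. Their 95% intervals reached from -0.39 to 0.095, from -0.46 to 0.38 and from -0.23 to 0.54. Under median centring the changes of Klf6, Klf3 and Klf10 were 0.60, 0.63 and 0.80, above these intervals. None was called (limma adjusted p = 0.546, 0.594 and 0.512). Relative to the median of all names they were 0.19, 0.22 and 0.39.

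Some other immediate genes of TGF-beta differed while Klf10 did not pass. Of 7 tested, 3 were lower and 1 higher, beside 9.96% and 13.8% of all names, with a median log2 change of -0.79. Under median centring 0 of the 7 were called and the median was 0.013. The feedback inhibitor genes Smad6 and Smad7 fell by 1.62 and 0.83 on the log2 scale (limma adjusted p = 9.15e-06 and 0.00216), and Tgfb1i1, which encodes the muscle-rich adaptor Hic-5, by 1.26 (adjusted p = 0.000813). Tgif1, a corepressor of SMAD proteins, rose by 1.33 (adjusted p = 4.31e-05). For each of these 4 the groups did not overlap, beside 25.5% of all names.

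Klf13, a KLF of T cells and heart, was read by 3 probes that disagreed. The brightest stood for the gene, with a log2 change of 0.063 ± 0.17 (SE, n = 5 and 5, limma adjusted p = 0.82). A probe at chr7:71032482-71032541 (mm9), listed on the plus strand while the other Klf13 probes are on the minus strand, changed by -0.22 ± 0.25 (adjusted p = 0.559 over all probes tested). A dim probe, brighter than 17.5% of the probes that stand for a name and spanning 32932 bases (chr7:71036675-71069606, mm9, minus strand), gave 2.57, 1.99, 1.17, 1.85 and 0.82 in sham arrays 1 to 5 and 0.64, 0.74, 0.18, 0.28 and -0.085 in PPE arrays 1 to 5. On that probe the groups did not overlap, and its log2 change was -1.33 ± 0.30 (SE, limma adjusted p = 0.00483 over all probes tested). Only the dim probe passed, with a fall, and neither of the other probes resolved a change in either direction. With the mean of the 3 probes the log2 change was -0.50 (limma adjusted p = 0.104), not called. Under median centring the brightest probe gave 0.69 (limma adjusted p = 0.557).

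The rest of the family gave no call. Of 17 further KLF and SP genes 12 were tested. Of these 0 passed the adjusted threshold in limma, beside 9.96% lower and 13.8% higher among all names. An unadjusted p under 0.05 was found for 2 of the 12, beside 43.6% of all names. The log2 changes of the 12 ran from -0.93 to 0.38 with a median of -0.07. The ends of that range, named after their values were seen, were Klf12, a repressor (-0.93 ± 0.34, SE, adjusted p = 0.0516), and Klf16 (0.38 ± 0.13, adjusted p = 0.0378). With the scanner software's ratios 1 of the 12 was called lower. Klf1, Klf14, Klf17, Sp5 and Sp9 were too dim to be tested.

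**Figure D4:**
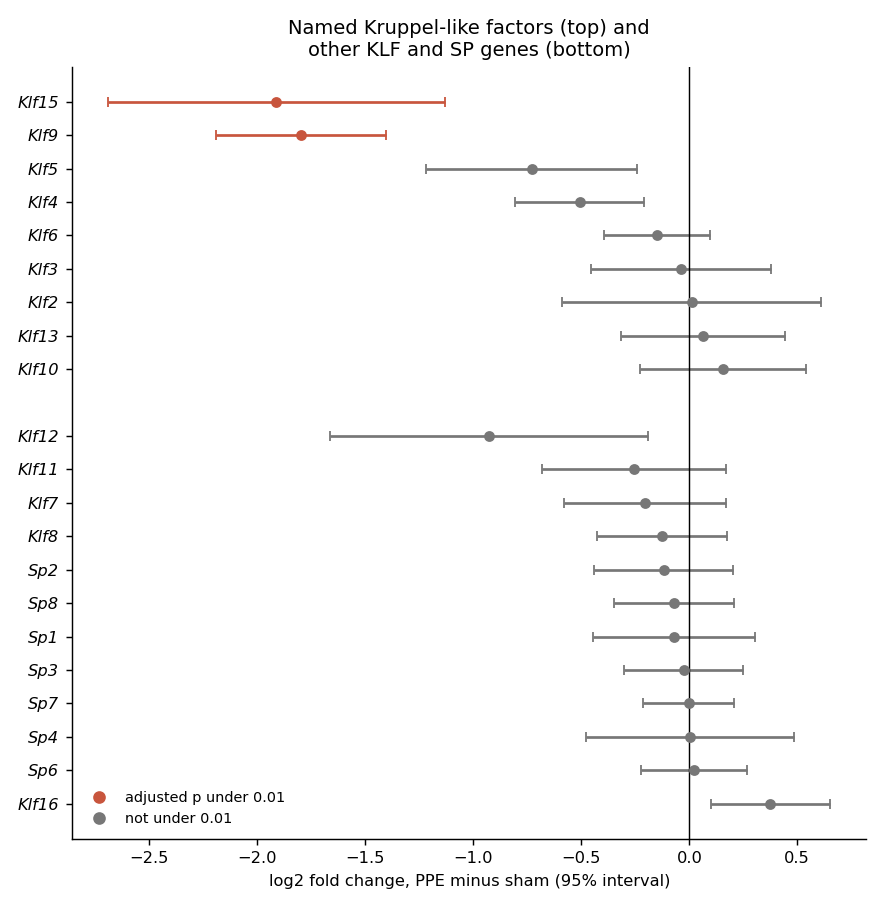
Log2 fold change, PPE minus sham (x axis), with the 95% interval of the limma fit for the 9 KLFs (top) and 12 other tested KLF and SP genes (bottom). Red marks an adjusted p under 0.01. Klf15 at -1.91 and Klf9 at -1.80 were called, and the intervals of Klf5, Klf4, Klf12 and Klf16 also lie clear of 0 without passing the adjusted threshold.

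The array profiles closest to 4 KLFs were sought among 10638 names that matched a RefSeq symbol, were above background on all 10 arrays and had a value on each, as the smallest root mean square difference of log2 ratios after each gene was centred on its own mean. Closest to Klf15 were Ntn1 (0.212), Kcnd3 (0.237) and Ldb3 (0.238), the last of these a Z-disc protein gene of striated muscle, beside a median of 1.14 over all names. Closest to Klf5 were Smtnl2 (0.213), Twist2 (0.22) and Gk5 (0.238), beside a median of 0.615. Klf4 lay nearest to Gata3 (0.105), Atf2 (0.116) and Uba2 (0.118), beside 0.451, and Klf2 nearest to Ubr1 (0.189), Plec (0.212) and Dync1h1 (0.217), beside 0.547. These are descriptions over 10 arrays that share the split into 2 groups.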

How the data were processed

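Infrarenal aortic RNA of 5 sham and 5 PPE mice was measured on 2-colour Agilent arrays, with groups and replicate numbers taken from the sample labels. Scanning and spot extraction were done by the authors (Agilent Feature Extraction 10.7.3.1), who state that poorly hybridized arrays and outliers were removed first, which could narrow the spread within groups. Per the file headers, spot signals were deposited as linear intensity and the LogRatio column as log10 of red to green, and the authors' table of the series holds log2 ratios of the processed signals, whose scale and centring are not stated there. A spot whose signals in both channels were substituted is set to 0 in the LogRatio.

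From the mean signal and median local background, limma 3.58.1 in R 4.3.3 gave log2 ratios after normexp (offset 50) and loess within arrays. The offset draws dim probes towards 0. Control and outlier spots were left out and spots of a probe averaged. Probes well above background in red on at least 5 of 10 arrays were tested, and the brightest stood for its gene, 22520 names in all. The PPE and sham arrays were compared by a two-sided unpaired limma fit (lmFit and eBayes) with p-values adjusted by Benjamini-Hochberg over all names, at 0.01 after the study's false discovery rate. The study's own test, SAM, was not run. Within-array differences were compared by exact two-sided permutation tests in Python 3.11.15, adjusted over 10 at a threshold of 0.05. The fit was tested on simulated data. The p-values measure the spread between single aortas of 1 series, and precision is limited by the number of arrays.

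The KLFs and all gene lists were chosen with earlier results of these data known. Named genes were all 9 KLFs, up to 3 called genes per direction of each list, and the 3 nearest profiles. A listed gene is not reported here and was left out of its list. Positions are those of the files (mm9). Probe and promoter names were matched by symbol, and 7 of 9 KLFs had a promoter in the RefSeq table. Alternatives were the scanner ratios, the series table, median centring, Aquantile, an offset of 10, other filters on dim probes, the mean of a gene's probes, a trended variance, slide, scan day or replicate number as a block, and leaving out each array.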

Additional observations from a re-analysis of the deposited data

Results flagged for a closer look

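Of 44 groups of 5 values checked (12 probes and 10 within-array differences in each group), 3 held an array whose gap to its nearest neighbour was more than 0.71 of the whole range of the group. Chance flags about 5% of groups. In the Klf3 log2 ratio, sham 3 lay lowest at 0.29, with the next array at 0.94, and PPE 2 lay highest at 1.39, with the next at 0.79. For Klf4 minus Klf5, PPE 1 lay highest at 2.71, with the next at 1.94.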

How the results depend on the processing

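The count of KLFs called, 2 in the main analysis, was 4 with the scanner software's LogRatio and 4 with the series table, which both added Klf4 and Klf5, and 0 under median centring. It stayed at 2 or 3 under the other 10 alternatives and between 2 and 3 with each array left out. The count of all names called was 416 under median centring, and 4298 to 5864 with each array left out, beside 5359. Median centring gave Klf9 -1.10 and Klf15 -1.37, neither called. Klf4 passed at -0.62 with the LogRatio and the series table, -0.67 with slide as a fixed block, -0.58 with slide as a random block and -0.56 with scan day as a block, and ran from -0.58 to -0.42 with each array left out, passing without PPE 2. Klf5 passed at -1.11 with the LogRatio and the series table. Both factors that were called kept their direction and call under all alternatives other than median centring, and Aquantile leaves ratios unchanged by construction. The count of within-array differences that passed, 4 of 10, was 2 with the mean of a gene's probes, and 0 to 6 with each array left out (0 without PPE 3 or PPE 5, 2 without sham 1, sham 2, sham 4 or PPE 2, and 6 without sham 5). With 4 arrays in a group the exact test has fewer relabellings, but its lowest possible p is the same as with 5 against 5. Without sham 5 the lowest exact permutation adjusted p was 0.0198, beside 0.0265 in the main analysis. The cause of the changes with processing or with arrays left out was not tested. Replicate numbers did not pair the samples: the correlations of same-numbered deviations were 0.291, -0.299, 0.162, -0.137 and 0.516, and 1 of 5 sham arrays was closest to its own number. With the replicate block 3022 names were higher and 2283 lower, Klf4 was -0.51 with a limma adjusted p of 0.0079 and so passed, and 3 KLFs were called.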
